A study of Mus musculus with 9 samples.

Results

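Mast cell genes were followed in the colonic mucosa of mice on 2 levels of dietary calcium. The set held 10 genes: the chymases Mcpt1, Mcpt2 and Mcpt4, the carboxypeptidase Cpa3, the tryptases Tpsb2 and Tpsab1, the protease Prss34, the histamine-forming enzyme Hdc, and the receptors Kit and Ms4a2. The genes were chosen with earlier results of these data known. Their probes were found by name, as those whose transcript accession maps to one of these symbols. Of the 10, 8 had a probe named in this way, 1 probe each, and all 8 passed the filter on dim probes and stood among the 21083 features tested. Kit and Tpsab1 had no probe named here and were not analysed here.

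All mice were of the ICR strain and all received 1,2-dimethylhydrazine, a colon carcinogen, injected under the skin each week for 20 weeks at 20 mg/kg. The DMH group ate a normal diet with 1.24% calcium, and its tumor status is labelled control, which does not say whether these mice bore tumors. The high calcium mice ate a diet with 3% calcium and were divided into those without tumors (hCA-Notumor) and those with tumors (hCA-Tumor). Each group had 3 arrays, 9 in all, of RNA from mucosa labelled normal. There was no group without the carcinogen, and ICR mice are outbred. Age and sex are not given in the sources used here. Whether the 3 arrays of a group stand for different animals is not said in the labels, and a p-value here can reflect technical spread alone.

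Mast cells are resident immune cells that store proteases, proteoglycans and histamine in granules and release them when IgE bound to the high-affinity receptor is crosslinked. In mice, mucosal mast cells lie in and under the gut epithelium and make the chymases Mcpt1 and Mcpt2, while connective tissue mast cells of the submucosa, skin and peritoneum make the chymases Mcpt4 and Cma1, the tryptases Tpsb2 and Tpsab1, and abundant Cpa3. Transforming growth factor beta and the Kit ligand are known to support the mucosal form, and GATA factors and Mitf drive mast cell genes.

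The promoters are shown first because the chymase genes Mcpt1, of the mucosal form, and Mcpt4, of the connective tissue form, have closely alike ones, while that of Cma1, another connective tissue chymase of the same gene cluster, is unlike both. RefSeq's promoter table (build GRCm38.p6, 250 bases before to 50 after the transcript start) had an entry for 7 of the 10 genes. Sequences run 5′ to 3′ along the gene, and capitals mark TGATAA or AGATAA, motifs known for GATA factors, on either strand. Mcpt1 lies at chr14:56017714-56018013, plus strand; Mcpt4 at chr14:56062261-56062560, minus strand; Cma1 at chr14:55944626-55944925, minus strand; and Cpa3, which is shared by both mast cell forms, at chr3:20242132-20242431, minus strand.
Mcpt1: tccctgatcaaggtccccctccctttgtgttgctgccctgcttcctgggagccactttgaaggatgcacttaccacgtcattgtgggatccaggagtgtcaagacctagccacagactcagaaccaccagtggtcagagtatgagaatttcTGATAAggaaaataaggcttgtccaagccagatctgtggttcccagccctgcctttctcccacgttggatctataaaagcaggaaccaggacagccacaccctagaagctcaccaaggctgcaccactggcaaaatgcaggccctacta
Mcpt4: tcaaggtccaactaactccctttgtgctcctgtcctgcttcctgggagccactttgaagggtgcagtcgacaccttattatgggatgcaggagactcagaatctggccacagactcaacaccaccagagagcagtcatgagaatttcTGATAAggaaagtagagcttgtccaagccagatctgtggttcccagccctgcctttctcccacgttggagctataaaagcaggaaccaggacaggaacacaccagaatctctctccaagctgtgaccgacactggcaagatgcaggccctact
Cma1: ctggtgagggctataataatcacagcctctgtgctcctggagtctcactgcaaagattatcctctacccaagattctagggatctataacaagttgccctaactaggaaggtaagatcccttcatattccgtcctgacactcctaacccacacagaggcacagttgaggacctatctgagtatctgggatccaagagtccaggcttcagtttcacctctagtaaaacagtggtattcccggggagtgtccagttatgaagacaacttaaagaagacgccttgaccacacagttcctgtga
Cpa3: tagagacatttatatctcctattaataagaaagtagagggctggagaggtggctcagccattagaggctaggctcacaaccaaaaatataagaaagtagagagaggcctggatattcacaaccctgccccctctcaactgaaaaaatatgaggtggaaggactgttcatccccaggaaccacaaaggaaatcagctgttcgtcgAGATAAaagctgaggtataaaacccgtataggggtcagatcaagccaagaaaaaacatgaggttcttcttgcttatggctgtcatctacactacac

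In a global alignment, 247 of 295 aligned positions (83.7%) were identical between the Mcpt1 and Mcpt4 promoters. The same method gave 52.2% between Mcpt1 and Cma1, 53.0% between Mcpt4 and Cma1, and 44.9% between Mcpt1 and Cpa3. With the first transcribed base as position 0, TGATAA began at -99 in Mcpt1 and at -103 in Mcpt4, and the letters TATAAA, searched on the gene's strand only, began at -28 and -32. GTCTG, a motif known for SMAD factors, had 1 match in each, on the opposite strand, at -138 and -141. Cpa3 had AGATAA at -46 and TATAAA at -31, and its 2 matches to the E-box CANNTG began at -116 and -59. Cma1 held neither GATA motif and 1 E-box. Among the other members, Prss34 had AGATAA at -31, Ms4a2 had 3 matches to AGATAA, and Hdc and Kit had no match to either GATA motif. Of the 32851 promoters of this length in the table, 18.6% held TGATAA or AGATAA on either strand, 72.3% the E-box, 49.6% GTCTG and 8.3% TATAAA. A match describes the letters only.

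Each value below is the log2 of a probe's processed signal minus the 75th percentile of its array, so that 0 is the level of that percentile and a step of 1 is a 2-fold change. Probes have no common scale, so values are compared between arrays and never between genes. Differences are given with the standard error (SE) of a linear model over all 9 arrays, and the adjusted p is limma's, corrected over all 21083 features of a comparison. The 2 comparisons with DMH share the DMH arrays and are not independent of each other. The 75th percentile signal ran from 534.2 to 772.6 between arrays, 61.1% to 73.7% of probes were well above background, and no probe was saturated. The arrays lay on 3 slides. DMH replicate 1 was on slide 1 with all 3 hCA-Notumor arrays, DMH replicates 2 and 3 were on slide 2 with hCA-Tumor replicates 1 and 2, and hCA-Tumor replicate 3 was alone on slide 3. Arrays of 1 group on different slides correlated less (r from 0.9672 to 0.9845 over 4 pairs) than those on the same slide (0.9938 to 0.997 over 5 pairs). Values with slide as a block, a fit that leaves out hCA-Tumor replicate 3, are therefore given where they change a result. That fit compares the groups within slide 1, which has 1 DMH array, and within slide 2.

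Of the 8 tested genes, 5 fell in both high calcium groups against DMH: Mcpt1, Mcpt2, Mcpt4, Cpa3 and Hdc. Of all features, 17.2% fell without tumors and 15.1% with tumors. Since the genes were chosen with earlier results of these data known, the shares set beside them here describe and do not test. All 5 were at least 2-fold lower in both groups, a size reached by 2.89% of all features without and 1.63% with tumors; with normexp background correction, which models background as noise under the signal, Cpa3 and Hdc were less than 2-fold lower in each group. In both groups the 5 genes had no array inside the DMH range, a pattern that 24.2% and 20.3% of all features showed in this direction. Over the mean of both high calcium groups, 5 of the 8 fell and Prss34 passed as higher, while 13.0% of all features fell and 18.4% rose. The median difference of the 8 genes was -1.47 without tumors and -1.26 with tumors, beside 0.07 and 0.09 over all features. Prss34 also passed as higher in the tumor group, where 22.1% of all features did, but only 1 of its 3 DMH arrays was well above background, so this call is given without a direction being read from it. None of the 8 was called higher without tumors by limma's test (1, Prss34, at an unadjusted p under 0.05), where 18.5% of all features did, and Tpsb2 and Ms4a2 passed in neither group. In bulk mucosa, fewer mast cells and less RNA per cell cannot be told apart. Markers of other cells, given below, also differed between the groups, and their part in these results was not tested.

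**Figure D1:**
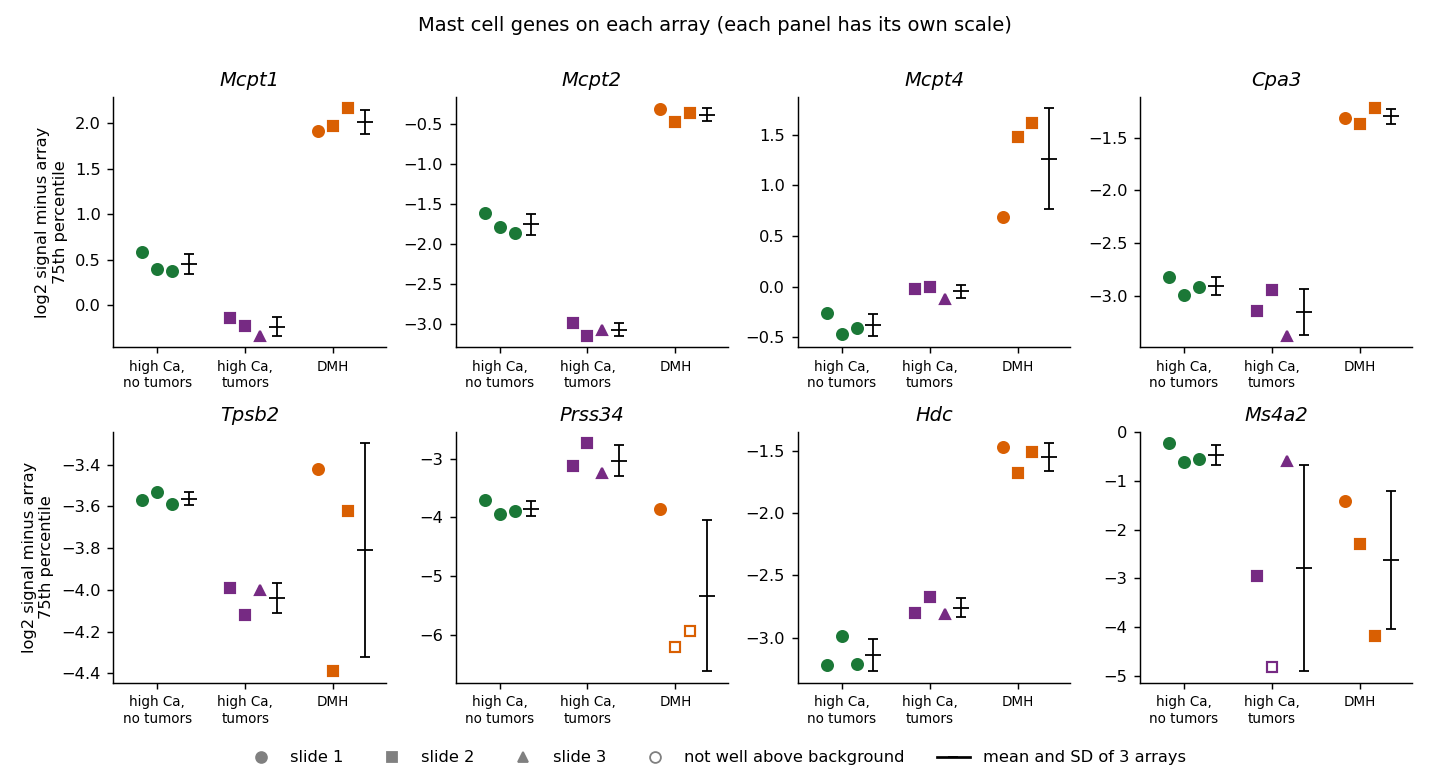
Log2 signal minus the array's 75th percentile for the 8 tested mast cell genes on each of the 9 arrays, by group; symbols give the slide, open symbols are not well above background, and bars are the mean and SD of 3 arrays. Mcpt1, Mcpt2, Mcpt4, Cpa3 and Hdc were higher on every DMH array than on every high calcium array, while for Tpsb2, Prss34 and Ms4a2 the DMH arrays were not all above the high calcium arrays.

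Mcpt1, the chymase that mucosal mast cells release into the gut lumen and blood, measured 1.92, 1.97 and 2.17 on the DMH arrays. It measured 0.58, 0.40 and 0.38 in the high calcium group without tumors and -0.14, -0.23 and -0.34 in the group with tumors. The 3 groups did not overlap, with DMH highest and the tumor group lowest. Without tumors the difference from DMH was -1.56 ± 0.09 (SE, 2.96-fold lower, adjusted p = 3.82e-05). With tumors it was -2.26 ± 0.09 (4.77-fold lower, adjusted p = 2.13e-05).

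Mcpt2, the other chymase of mucosal mast cells and the neighbour of Mcpt1 in the cluster, followed the same order. Its DMH values were -0.31, -0.47 and -0.35, those without tumors -1.61, -1.79 and -1.86, and those with tumors -2.99, -3.15 and -3.08. Again no array of 1 group reached another group. It was 2.59-fold lower than DMH without tumors (-1.37 ± 0.08, adjusted p = 3.78e-05) and 6.48-fold lower with tumors (-2.70 ± 0.08, adjusted p = 7.29e-06). With normexp the differences were -1.05 and -1.83 (adjusted p = 0.000311 and 3.74e-05).

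Both mucosal chymases were thus lowest in the mice with tumors. Set directly against each other, the group without tumors was higher than the group with tumors by 0.69 ± 0.09 for Mcpt1 (adjusted p = 0.000897) and by 1.32 ± 0.08 for Mcpt2 (adjusted p = 4.04e-05). In that comparison 47.7% of all features passed, 19.8% as higher and 27.9% as lower, so a call alone says little about these genes. Arrays of the 2 groups that did not overlap were found for 25.1% of all features in the higher and 34.1% in the lower direction. A 2-fold change with an unadjusted p under 0.05 was reached by 7.98% of all features and, among the 8 genes, by Mcpt2, whose difference was 0.78 with normexp (adjusted p = 0.000896), under 2-fold. The groups without and with tumors share no slide, so slide and group cannot be told apart there except through the DMH arrays, and with slide as a block the differences were 0.79 for Mcpt1 (adjusted p = 0.0163) and 1.23 for Mcpt2 (adjusted p = 0.00612).

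Mcpt4, the chymase of connective tissue mast cells and the functional counterpart of human chymase, was also lower on high calcium, but the group with tumors was not the lowest. It measured 0.69, 1.48 and 1.62 on the DMH arrays, -0.26, -0.47 and -0.41 without tumors and -0.02, -0.00 and -0.12 with tumors. The DMH array on slide 1 lay well below the other 2. The difference from DMH was -1.65 ± 0.22 without tumors (3.13-fold lower, adjusted p = 0.00129) and -1.31 ± 0.22 with tumors (2.48-fold lower, adjusted p = 0.00345). Within slide 1 the difference without tumors was -1.08, and within slide 2 the difference with tumors was -1.56. The high calcium groups differed by -0.34 ± 0.22 (without minus with, adjusted p = 0.251), and the sign turned to 0.49 with slide as a block (adjusted p = 0.0387), so no order of the 2 groups can be read for Mcpt4.

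Tpsb2, a tryptase of connective tissue mast cells, was well above background on all 9 arrays. It measured -3.42, -4.39 and -3.62 in DMH, -3.57, -3.53 and -3.59 without tumors and -3.99, -4.12 and -4.00 with tumors. Both high calcium groups lay within the DMH range, which DMH replicate 2 widened. The difference was 0.25 ± 0.22 without tumors (adjusted p = 0.398) and -0.22 ± 0.22 with tumors (adjusted p = 0.488). Without DMH replicate 2 the tumor group was lower, with a difference of -0.51 (adjusted p = 0.00495), so that 1 array decides this call.

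Cpa3, the granule carboxypeptidase that cooperates with chymases, measured -1.31, -1.37 and -1.22 in DMH. It measured -2.82, -2.99 and -2.92 without tumors and -3.14, -2.94 and -3.38 with tumors, so that both high calcium groups lay below DMH and overlapped each other. It was 3.06-fold lower without tumors (-1.61 ± 0.11, adjusted p = 7.78e-05) and 3.62-fold lower with tumors (-1.86 ± 0.11, adjusted p = 8.67e-05). With normexp these differences were -0.89 and -0.99 (adjusted p = 0.00263 and 0.00207). The 2 high calcium groups differed by 0.24 (adjusted p = 0.118).

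Hdc, the enzyme that makes histamine from histidine, measured -1.47, -1.68 and -1.51 in DMH, -3.22, -2.99 and -3.21 without tumors and -2.80, -2.67 and -2.81 with tumors. The groups did not overlap, and here the group without tumors was lowest. It was 3.00-fold lower than DMH without tumors (-1.58 ± 0.09, adjusted p = 2.64e-05) and 2.30-fold lower with tumors (-1.20 ± 0.09, adjusted p = 0.000162). With normexp these differences were -0.80 and -0.65 (adjusted p = 0.0134 and 0.0291). The difference between the high calcium groups, -0.38 ± 0.09 (adjusted p = 0.00896), lost its call with slide as a block (-0.53, adjusted p = 0.0541), with normexp background correction (-0.15, adjusted p = 0.582), with quantile normalization (-0.42, adjusted p = 0.0503) and on the authors' series-wide values (-0.43, adjusted p = 0.0793).

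Prss34, a tryptase-like protease known from basophils and mast cells, was dim and passed the filter through the high calcium groups. It measured -3.12, -2.74 and -3.25 with tumors and -3.71, -3.95 and -3.90 without tumors. Of the DMH arrays, replicate 1 read -3.85, while replicates 2 and 3 read -6.21 and -5.94 and were not well above background, so a level was measured on 1 of 3 DMH arrays and that array lay inside the range without tumors. The fitted difference with tumors was 2.30 ± 0.56 (adjusted p = 0.0159), and 0.09 with normexp (adjusted p = 0.837). It lost its call without DMH replicate 3 (2.00, adjusted p = 0.057) or hCA-Tumor replicate 2 (2.15, adjusted p = 0.054). Over both groups the fitted difference of 1.89 ± 0.49 (adjusted p = 0.0228) lost its call without DMH replicate 2 (1.45, adjusted p = 0.0866) or DMH replicate 3 (1.59, adjusted p = 0.0979) and with normexp (0.21, adjusted p = 0.559). Without tumors the difference was 1.48 ± 0.56 (adjusted p = 0.078), and 0.00 within slide 1 (adjusted p = 0.998). With slide as a block the difference with tumors was 3.15 (adjusted p = 0.000373), against the 2 DMH arrays not well above background, and that between the high calcium groups went from -0.82 (adjusted p = 0.273) to -3.15 (adjusted p = 0.00216). No direction can be read for Prss34.

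Ms4a2, the beta chain of the high-affinity IgE receptor, had no settled difference. It measured -1.41, -2.30 and -4.18 in DMH, -0.23, -0.61 and -0.55 without tumors, and -2.96, -4.82 and -0.59 with tumors, where the second was not well above background. The 3 arrays without tumors lay close together above all DMH arrays, and the tumor group spanned nearly the whole range, with its slide 3 array at the top. The difference was 2.17 ± 1.09 without tumors (adjusted p = 0.158) and -0.16 ± 1.09 with tumors (adjusted p = 0.929).

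**Figure D2:**
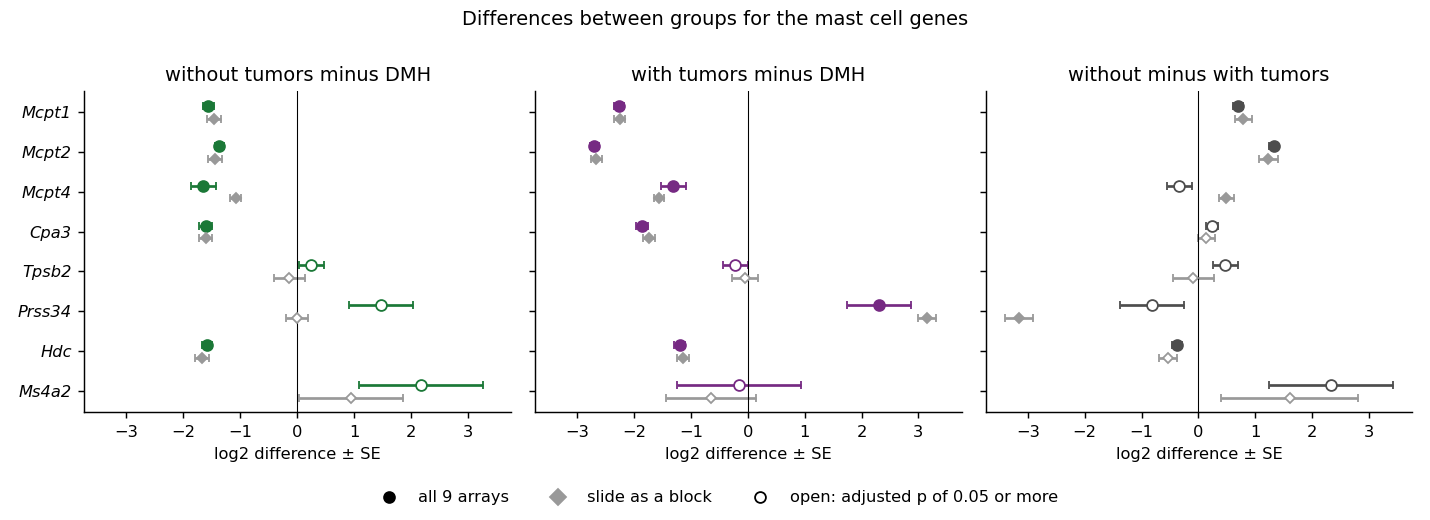
Log2 differences between groups with their SE for the 8 tested genes, from all 9 arrays (circles) and with slide as a block (diamonds); open symbols have an adjusted p of 0.05 or more. Mcpt1, Mcpt2, Mcpt4, Cpa3 and Hdc lie below 0 in both comparisons with DMH in either fit; the Mcpt4 difference between the high calcium groups changes sign, from -0.34 to 0.49.

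The mucosal proteases were then set against the connective tissue proteases as a log2 ratio on each array. Against Tpsb2, both mucosal chymases were lower on every high calcium array than on every DMH array. The Mcpt1 to Tpsb2 ratio was 4.16, 3.93 and 3.96 without tumors, 3.85, 3.89 and 3.66 with tumors, and 5.34, 6.36 and 5.79 in DMH. Over both high calcium groups it fell by 1.92 on the log2 scale (exact two-sided permutation p = 0.0238, the smallest that 6 against 3 arrays allow, adjusted p = 0.133 over 16 tests), and the Mcpt2 to Tpsb2 ratio fell by 2.05 with the same p. After adjustment neither passed, but with so few arrays no ratio could have reached an adjusted p under 0.05 over 16 tests.

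Against Mcpt4 the ratio differed little from DMH in the group without tumors. The Mcpt1 to Mcpt4 ratio was 0.84 ± 0.04 without tumors, -0.19 ± 0.06 with tumors and 0.75 ± 0.41 in DMH (SD, n = 3 arrays). The group without tumors lay inside the DMH range (difference 0.08, exact permutation p = 0.9), and the sign is not settled, since within slide 1 it was -0.38. The tumor group lay below all DMH arrays, with a difference of -0.94 (exact permutation p = 0.1, the smallest that 3 against 3 arrays allow) and of -0.69 within slide 2. The Mcpt2 to Mcpt4 ratio had the same order, at -1.37 ± 0.07, -3.03 ± 0.10 and -1.64 ± 0.55, and the tumor group differed from DMH by -1.39. Without tumors its difference from DMH was 0.28 over all arrays but -0.36 within slide 1, so that sign is not settled either. These ratios show unequal change of 2 probes on the same array, and none of the 16 had an adjusted p under 0.133.

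**Figure D3:**
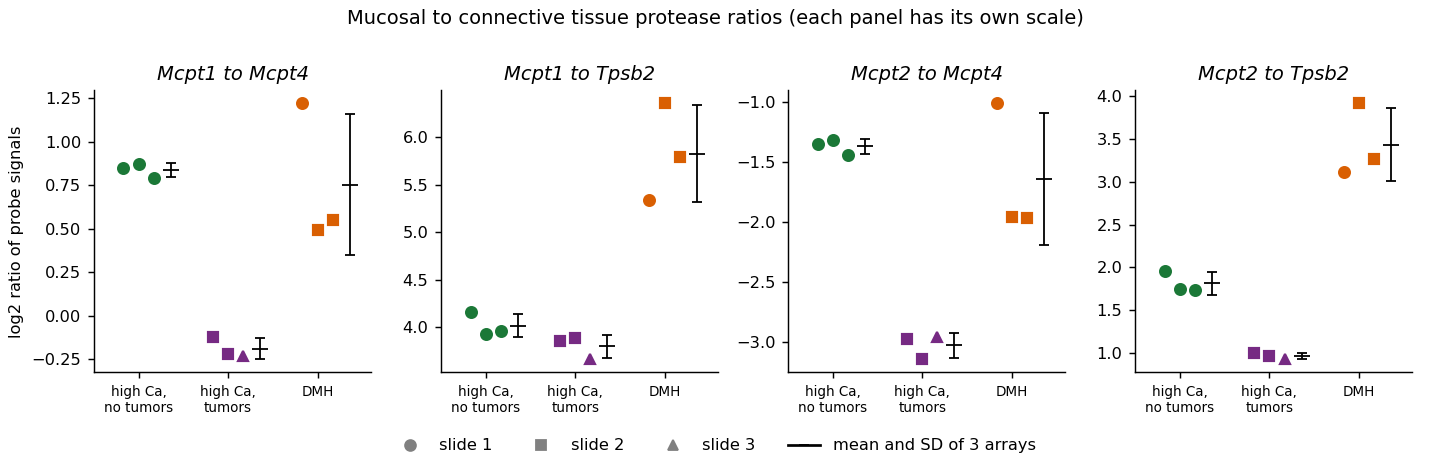
Log2 ratio of each mucosal chymase to Mcpt4 or Tpsb2 on each array, by group, with slides as symbols and the mean and SD of 3 arrays as bars. Both ratios to Tpsb2 are lower on all 6 high calcium arrays than on the 3 DMH arrays; the ratios to Mcpt4 are lowest in the tumor group, and DMH replicate 1, on slide 1, stands above the other DMH arrays.

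The chymase genes lie in 1 cluster on chromosome 14 in the RefSeq order Cma1, Cma2, Mcpt1, Mcpt2, Mcpt9, Mcpt4, Mcpt8 and Ctsg, followed by granzymes. The 4 tested genes from Cma2 to Mcpt4 fell in both high calcium groups, and of the other tested genes described here none fell in both. Cma2, a chymase-like gene between Cma1 and Mcpt1, was lower without tumors (-0.76 ± 0.17, adjusted p = 0.0106) and with tumors (-1.54 ± 0.17, adjusted p = 0.000578), and like Mcpt1 and Mcpt2 it was higher without than with tumors (0.77, adjusted p = 0.00698). Cma1, the connective tissue chymase whose promoter is printed above, was lower without tumors (-0.38 ± 0.08, adjusted p = 0.0106, and 0.0645 with slide as a block) and higher with tumors (0.36 ± 0.08, adjusted p = 0.013). Its second probe gave -0.22 and 0.18 and passed in neither. Mcpt9, known from mast cells of the uterus, was well above background on 2 DMH arrays and 0 high calcium arrays and was not tested. Mcpt8, the basophil protease, was well above background on 0 of 9 arrays. Ctsg, the protease of neutrophils and mast cells, differed by 0.39 and 0.11 with no call. Gzmb, the cytotoxic granzyme at the far end, was lower without tumors (-1.74, adjusted p = 0.00024) and differed by -0.26 with tumors (adjusted p = 0.245). Gzmc, its neighbour granzyme, was well above background on 3 arrays each in DMH and with tumors and on 0 without tumors. It was higher with tumors than in DMH (2.90, adjusted p = 0.0005). With the lowest signal well above background standing for arrays below it, Gzmc was at least 14.6-fold higher with than without tumors. Limma's adjusted p of 3.92e-05 belongs to the measured difference of -4.84 (without minus with), which used the signals not well above background. Gzmb and Gzmc were chosen after their values were seen. Mcpt1, Mcpt2, Mcpt9 and Mcpt4 are close relatives, as are the tryptases, and the files hold no probe sequences, so how far a probe also reads a relative was not tested.

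**Figure D4:**
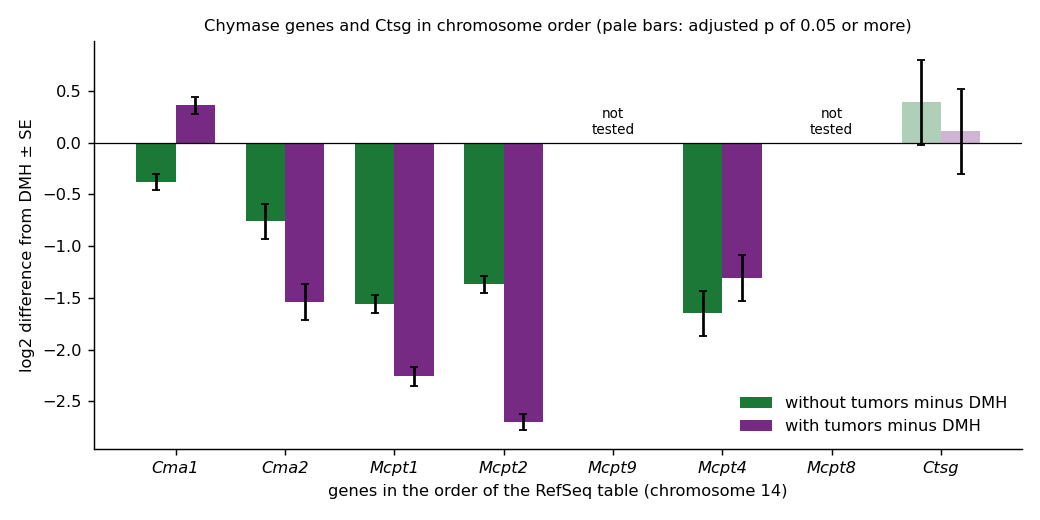
Log2 difference from DMH with its SE for 8 genes of the chymase cluster in chromosome order; pale bars have an adjusted p of 0.05 or more. Cma2, Mcpt1, Mcpt2 and Mcpt4 are below 0 in both groups, from -0.76 to -2.70, while Cma1 is at -0.38 and 0.36.

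In the tryptase cluster on chromosome 17, Tpsg1, a membrane-anchored tryptase beside Tpsb2, was lower with tumors (-0.62 ± 0.08, adjusted p = 0.00101) and at 0.21 without tumors (adjusted p = 0.072). The genes Prss28 and Prss29 between Prss34 and Tpsb2 did not pass the filter.

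Of 21 other mast cell and basophil genes, 17 were tested. Without tumors 5 fell and 1 rose, and with tumors 4 fell and 3 rose, with medians of -0.16 and 0.03. With slide as a block, 5 fell and 3 rose with tumors, with a median of -0.1. Of all features, 17.2% fell and 18.5% rose without tumors, and 15.1% fell and 22.1% rose with tumors. Il1rl1, the receptor for the cytokine Il33, fell most in both groups. It measured 0.79, 0.81 and 1.04 in DMH, -0.90, -1.02 and -1.06 without tumors and -1.16, -0.97 and -1.39 with tumors, so that DMH stood clear of both. The differences were -1.88 ± 0.12 (adjusted p = 4.8e-05) and -2.06 ± 0.12 (adjusted p = 7.45e-05), and its other 2 probes were also lower (-1.45 and -1.61 without tumors, -2.69 and -1.89 with tumors). The probe at -2.69 was well above background on only 1 of the 3 tumor arrays, so that value rests partly on low signal. Gata2, a transcription factor of mast cells and their progenitors, was lower without tumors (-0.65, adjusted p = 0.000282) and at 0.03 with tumors (adjusted p = 0.779). Mitf, which drives Kit and protease genes, was higher in both (0.81 and 0.67, adjusted p = 0.00568 and 0.0116). Tph1, the serotonin-forming enzyme of enterochromaffin and mast cells, was lower with tumors (-0.67, adjusted p = 0.000412). Srgn, the proteoglycan core that holds granule proteases, differed by -0.09 and -0.13 with no call, and it is made by many blood cells.

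Among 14 genes of IgE receptor signalling, 12 were tested. Without tumors 5 fell and 1 rose, and with tumors 2 fell and 0 rose by limma's test (1 was higher at an unadjusted p under 0.05), with medians of -0.30 and -0.07. With slide as a block, 3 fell and 1 rose with tumors. Of all features, 17.2% fell and 18.5% rose without tumors, and 15.1% fell and 22.1% rose with tumors. Fcer1g, the shared gamma chain, was lower without tumors (-0.40, adjusted p = 0.00378). Fcer1a, the IgE-binding chain, differed by -0.43 and -0.54 with no call (adjusted p = 0.387 and 0.308). With slide as a block, which leaves out hCA-Tumor replicate 3, its differences were -0.64 and -0.92 (adjusted p = 0.0107 and 0.00173); that array read -1.97, against -3.54 and -3.31 on the other tumor arrays. Plcg2, a phospholipase below the receptor, was lower in both groups (-0.55 and -0.35), as was the adaptor Lat2 (-0.51 and -0.30, the former with an adjusted p of 0.0569 with slide as a block). The adaptor Lat rose without tumors (1.07, adjusted p = 0.000577).

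Of 22 genes for mast cell growth, homing and maturation, 17 were tested. Without tumors 6 fell and 3 rose, beside 17.2% and 18.5% of all features. With tumors 4 fell and 5 rose, beside 15.1% and 22.1% of all features. Il33, the epithelial alarmin that binds Il1rl1, measured -0.43, -0.42 and -0.27 in DMH, -1.86, -1.85 and -1.86 without tumors and -0.64, -0.62 and -0.86 with tumors. It was far lower without tumors (-1.48 ± 0.08, adjusted p = 2.13e-05) than with tumors (-0.33 ± 0.08, adjusted p = 0.0132), and the group without tumors was lower than that with tumors (-1.15, adjusted p = 5.38e-05), while Mcpt1 and Mcpt2 were higher there. Tgfb1, which supports Mcpt1 expression, was lower in both (-0.27 and -0.34, adjusted p = 0.0256 and 0.00933). Itgae, the integrin chain that holds mucosal mast cells and lymphocytes to the epithelium, was higher with tumors (0.68, adjusted p = 0.000363) and by 0.25 without (adjusted p = 0.0196, and 0.0893 with slide as a block). Kitl, the ligand of Kit, was lower without tumors by its brightest probe (-0.42, adjusted p = 0.00513), but its other probe gave 0.68 with no call. Thbs1, an activator of latent transforming growth factor, was lower with tumors (-0.82, adjusted p = 0.000587). The part of Il33, Tgfb1 and the other genes of this list in the mast cell results was not tested.

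Of 15 genes of histamine and lipid mediators, 11 were tested. Of all features, 17.2% fell and 18.5% rose without tumors, and 15.1% fell and 22.1% rose with tumors. None of the 11 passed without tumors in limma's test at an adjusted p of 0.05, while with tumors 5 rose and 2 fell. Alox5, for example, differed by -0.48 without tumors (adjusted p = 0.0671). At an unadjusted p under 0.05, 1 of the 11 was higher and 1 lower without tumors. With slide as a block 1 rose and 2 fell without tumors. Aoc1, the diamine oxidase that degrades histamine in the gut, was higher with tumors (0.76 ± 0.10, adjusted p = 0.00103) and at -0.14 without (adjusted p = 0.282). Hrh1, a histamine receptor, was higher with tumors (0.67, adjusted p = 0.00301). Alox5, the first enzyme of leukotriene synthesis, was lower with tumors (-0.93, adjusted p = 0.00525), and Cysltr1, a leukotriene receptor, was higher (0.52, adjusted p = 0.0049).

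Markers of other cells were counted in the same way. Of all features, 17.2% fell and 18.5% rose without tumors, and 15.1% fell and 22.1% rose with tumors. A count near these shares, such as that of the epithelial markers with tumors, says little about a list. Adipocyte markers fell in 4 of 5 tested without tumors and 3 of 5 with tumors (medians -3.28 and -3.20). Their summed signal, in multiples of the 75th percentile, ran from 32.4 to 35.9 in DMH, 4.79 to 7.76 without tumors and 8.3 to 12.6 with tumors; Lep did not pass the filter. Smooth muscle markers rose in 6 of 8 without tumors (1 of 8 with slide as a block) and 8 of 8 with tumors, and their sum ran from 236 to 405, 440 to 548 and 632 to 825 in DMH, without tumors and with tumors. The samples are labelled mucosa, and all 8 muscle markers and all 10 epithelial markers were tested. Of 7 neutrophil and monocyte markers 4 fell without and 6 with tumors; S100a9, a calcium-binding protein of neutrophils, fell in both (-3.56 and -2.63), and the list's sum ran from 30.2 to 30.9 in DMH, 25.2 to 26.8 without tumors and 22.6 to 25.1 with tumors. Of 6 eosinophil markers 4 fell without and 2 with tumors, with Ccl24, an eosinophil chemokine, lower in both (-1.51 and -0.97). The sum of this list ran from 1.04 to 1.13 in DMH, 0.479 to 0.524 without tumors and 0.705 to 0.734 with tumors. Ccl24, with log2 means of -0.50, -2.00 and -1.47 in that order, carried a large part of the sum and of its fall. That sum is therefore no measure of eosinophils, and the granule marker Epx did not pass the filter. Lymphocyte markers fell in 0 and rose in 2 of 10 without tumors, and fell in 2 and rose in 0 with tumors by limma's test (at an unadjusted p under 0.05, 0 were lower and 3 higher without, and 4 lower and 0 higher with tumors); their sum ran from 16.2 to 18.1 in DMH, 14.3 to 16.7 without tumors and 12.6 to 16.3 with tumors. Of 6 markers of interstitial cells of Cajal, the pacemaker cells of gut muscle, 4 rose and 1 fell without tumors and 1 rose and 1 fell with tumors, and their sum ran from 24.6 to 25.6, 42.8 to 51.5 and 44.4 to 54.0. Of the 10 epithelial markers 4 rose and 1 fell without tumors, and 2 rose and 2 fell with tumors. With slide as a block, 5 neutrophil and monocyte markers fell with tumors, and 4 epithelial markers rose and 2 fell. The part of all these cell types in the mast cell results was not tested.

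**Figure D5:**
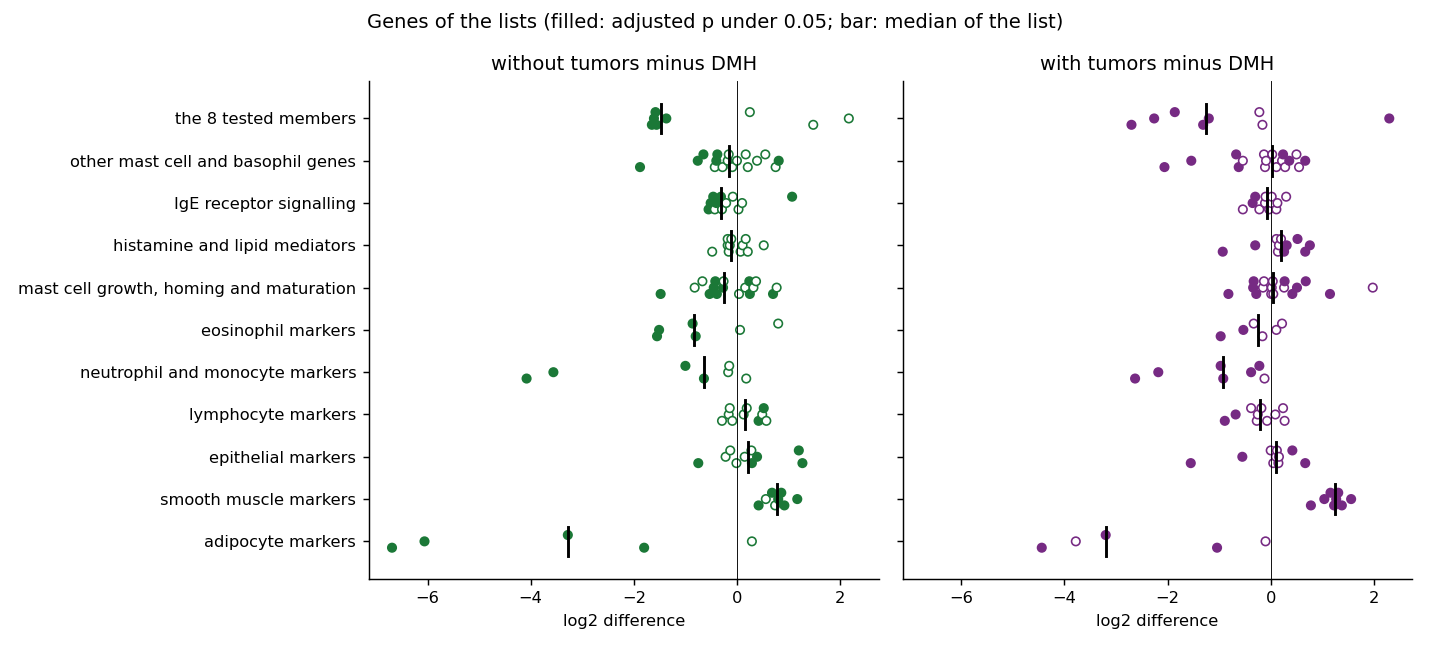
Log2 difference from DMH of each tested gene in 11 gene lists, without tumors (left) and with tumors (right); filled points have an adjusted p under 0.05 and bars are list medians. The 8 tested mast cell genes have medians of -1.47 and -1.26, the other mast cell and basophil genes -0.16 and 0.03, and adipocyte markers -3.28 and -3.20.

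Lastly, the genes whose centred values over the 9 arrays lay closest to each of 4 proteases were found among 14136 named features, as the root mean square distance in log2 units. For Mcpt1 they were Cpa3 (0.22), Il1rl1 (0.22), Mcpt2 (0.28), Retnlg (0.31) and Scd1 (0.31), where the median feature lay at 0.99. Retnlg is a resistin-like protein of myeloid cells and Scd1 a fatty acid desaturase. For Cpa3 they were Il1rl1 (0.12), Trim10 (0.16), Mcpt1 (0.22), Retnlg (0.24) and Spsb4 (0.25), with a median of 0.88. Il1rl1 and Mcpt1 stand in the mast cell lists, and Mcpt2 ranked 94 from Cpa3. For Mcpt2 they were Mcpt1 (0.28), Prkg2 (0.45), Sprr2d (0.46), Xlr3c (0.48) and Cpa3 (0.48), with a median of 1.15. For Mcpt4 they were Ptgs2 (0.17), Mab21l3 (0.19), Spsb4 (0.19), Ier3 (0.26) and Mfsd2a (0.27), with a median of 0.80. Ptgs2 makes prostaglandins, Ier3 is an immediate early gene and Mfsd2a a lipid transporter. None of the 5 nearest to Mcpt4 was a protease; Hdc ranked 14, Cpa3 49 and Mcpt1 279. Tpsb2 ranked 5035 from Mcpt1 and 9915 from Mcpt4. Retnlg averaged -5.80 without and -6.16 with tumors, Sprr2d -5.52 and -5.86, and Mab21l3 -5.54 without tumors. The distances of these 3 rest partly on such low signal. The 9 arrays share group and slide, so likeness here is a description of 9 arrays.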

How the data were processed

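Total RNA of 9 colonic mucosa samples was measured on 1-colour Agilent arrays (design 014868), 1 for each sample. Per the file headers, the deposited intensity values are processed signals, from which Feature Extraction (version 10.5.1.1, per the submitters' processing notes) had subtracted background, annotated on mouse build mm9. A table of the series that the authors deposited gives log2 processed signals for 23726 probes, centred on each array's median, as set against the scanner values (r of at least 0.999994; column medians 2.36 to 2.8). Its choice of probes is unstated, and it was used only as an alternative.

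From the intensities, log2 of the processed signal minus each array's 75th percentile was computed. Control spots and outlier spots (383 probes touched) were left out. A probe was kept if every array of 1 or more groups had it well above background, which 27192 of 41174 were. Accessions were matched to RefSeq symbols (GRCm38.p6): 25097 probes had 1 symbol and 16077 had none. A gene was read from its brightest kept probe, giving 21083 features, 14190 of them with a symbol. The number of arrays limits the precision. Differences were tested in R 4.3.3 by limma 3.58.1, with lmFit and eBayes on all 9 arrays and group as the only term, with Benjamini-Hochberg adjustment at 0.05 in each of 4 comparisons, and ratios with exact permutation tests over arrays. All members are named; of each list, the genes past the threshold with the largest changes, up to 6, could be named. Alternatives changed background correction, normalization, filter, probe choice, slide, replicate number, variance model, call rule and arrays. The members and lists were chosen with earlier results of these data known, and the search for TATAAA was added after the other motifs had been seen.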

Additional observations from a re-analysis of the deposited data

Results flagged for a closer look

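For every gene below, the difference from DMH was not the same in the high calcium groups without and with tumors, by limma's test of the groups against each other (without minus with, adjusted p under 0.05). In this comparison 47.7% of all features passed, and no slide held arrays of both groups. With slide as a block, which links the groups only through the DMH arrays, part of the calls below were lost, those of Hdc and Lat among them. Among the mast cell genes, Mcpt1 differed by 0.69, from -1.56 and -2.26 against DMH, Mcpt2 by 1.32, from -1.37 and -2.70, and Hdc by -0.38, from -1.58 and -1.20.

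In the protease clusters, Cma1 differed by -0.74, from -0.38 and 0.36; its second probe differed by -0.40 (adjusted p = 0.00881). Cma2 differed by 0.77, Tpsg1 by 0.84 and Gzmb by -1.47. Of the other mast cell and signalling genes, Gata2 differed by -0.68, Tph1 by 0.48, Fcer1g by -0.29, Plcg2 by -0.20 and Lat by 0.77. Of those for growth and homing, Il33 differed by -1.15, Itgae by -0.43, Kitl by -0.44 and Thbs1 by 0.55. Itgb6, an integrin chain of the epithelium that activates latent transforming growth factor, differed by -1.05, from -0.53 and 0.51, by its brightest probe, but its other 2 probes differed by 0.72 and 0.29 in the opposite direction. Of the mediator genes, Aoc1 differed by -0.90, Hrh1 by -0.85 and Cysltr1 by -0.63. Of the markers of other cells, S100a9 differed by -0.94 and Ccl24 by -0.53.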

How the results depend on the processing

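Mcpt1, Mcpt2, Mcpt4, Cpa3 and Hdc were lower against DMH with an adjusted p under 0.05 in all 18 alternatives for both groups together and all 20 for each group. Normexp background correction moved the dim genes most, to -0.94 for Cpa3, -0.72 for Hdc and -1.44 for Mcpt2 over both groups. The calls on the 8 genes between the high calcium groups numbered 3, and 6 with only the groups compared in the fit (Mcpt4, Tpsb2 and Prss34 added). They numbered 1 with an unadjusted p under 0.05 and a 2-fold change, and 3 to 5 with 1 array left out (5 without DMH replicate 1). Of all 21083 features, 10048 passed in the main fit, 9953 with only the groups compared and 8294 to 12297 with 1 array left out. The unadjusted 2-fold rule passed 7.98%, so a call alone says little about the 8 genes here. Tpsb2, at 0.01 over both groups, ran from -0.28 (without DMH replicate 2, adjusted p = 0.0347) to 0.21 with 1 array left out; Mcpt4 turned to 0.49 between the high calcium groups with slide as a block, and, without tumors, Itgb6 to 0.05 and Kitl to 0.13 with the mean of their probes. The Mcpt1 to Mcpt4 ratio without tumors, 0.08, ran from -0.05 to 0.32 with 1 array left out. The cause of these changes was not tested.

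Same replicate numbers did not pair the arrays (r of deviations from -0.57 to 0.22 over 9 pairs, 2 of them over 0.1); with the replicate number as a block, calls on the 8 genes stayed at 6, 5, 6 and 3 for both groups, without tumors, with tumors and between them, and calls over all features were 5223, 5971, 6472 and 8900 in place of 6627, 7513, 7848 and 10048. With normexp these were 3181, 3817, 4154 and 6280, and on the authors' series-wide values they were 2144, 3339, 2403 and 4783; without DMH replicate 3 the first was 4272. Those values moved the median of all features from 0.08 to -0.11 over both groups, from 0.07 to -0.14 without and from 0.09 to -0.06 with tumors, and the share of calls that were higher from 58.5% to 30.3%, 51.8% to 29.3% and 59.5% to 39.5%. Low signal over background limits Prss34, and the spread between arrays limits Ms4a2 (SD of 2.12 with tumors and 1.41 in DMH). Tpsb2 was dim on every array, with processed signals from 30.8 to 64.7, which limits the ratios to it.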
